A study of Homo sapiens with 9 samples.

Results

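HCCLM3 is an established human hepatocellular carcinoma cell line. It was transfected with siRNA against UXS1, with siRNA against MRPL42 or with a non-targeting control siRNA, and poly(A) RNA was sequenced in 3 libraries per siRNA. The comparison described here sets the 6 libraries that received either targeting siRNA (UXS1 siRNA a, b and c and MRPL42 siRNA a, b and c) against the 3 that received control siRNA (control a, b and c), 9 libraries in all. Libraries were placed on a side by column name, and all 12657 genes that passed the expression filter were tested. The comparison was made with all 3 controls and again without control library c, which stood apart from the other 8 libraries (Pearson's r of log2 CPM, the counts scaled to library size, of 0.956 to 0.967 with each of them, across genes). That omission was chosen with earlier results of these data known. UXS1 makes UDP-xylose, the sugar donor that starts the linker of heparan and chondroitin sulfate chains, and MRPL42 is a protein of the mitochondrial ribosome. The pooled comparison asks what the cells given either targeting siRNA share against cells given the control siRNA. No untransfected library was analysed here, so a change caused by the targeting siRNAs and one caused by the control siRNA cannot be told apart. Nothing in the labels ties libraries to separate cultures, so the p-values measure the spread between libraries, which may be technical. The siRNA dose, the time after transfection and the siRNA sequences were not in the sources used.

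Some groups of genes recur below. The integrated stress response is a program in which phosphorylation of the initiation factor eIF2 slows translation and lets ATF4 be made, and ATF4 with C/EBP partners then switches on amino acid synthesis, amino acid transport and aminoacyl-tRNA synthetase genes. Cholesterol synthesis genes are switched on by SREBP2, which is held in the endoplasmic reticulum by INSIG proteins when sterols are plentiful. The ERK cascade induces immediate early genes such as FOS and EGR1 and, with them, its own inhibitors, the DUSP phosphatases and the Sprouty and SPRED proteins. Genes for ribosomal proteins and small respiratory chain subunits share short transcripts, which matters here because transcript length moved with the groups.

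With all 9 libraries, 460 of 12657 genes passed the test (3.63%, edgeR quasi-likelihood, adjusted p under 0.05), 331 higher (2.62%) and 129 lower (1.02%) with the targeting siRNAs. Without control c, 472 passed (3.73%), 225 higher (1.78%) and 247 lower (1.95%). The lists shared 244 genes, which is 53% of the first and 51.7% of the second. Of these 244, 142 were higher and 102 lower in both, and 0 had opposite signs. In the 9-library fit 395 of the 460 (85.9%) had an adjusted p of 0.04 or more, so the list sat close to the threshold, and the lowest adjusted p was 0.00496. Without control c the lowest was 0.000158, and 94 genes had an adjusted p under 0.01, 74 of them lower. The biological coefficient of variation was 0.123 with control c and 0.0746 without it.

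**Figure D1:**
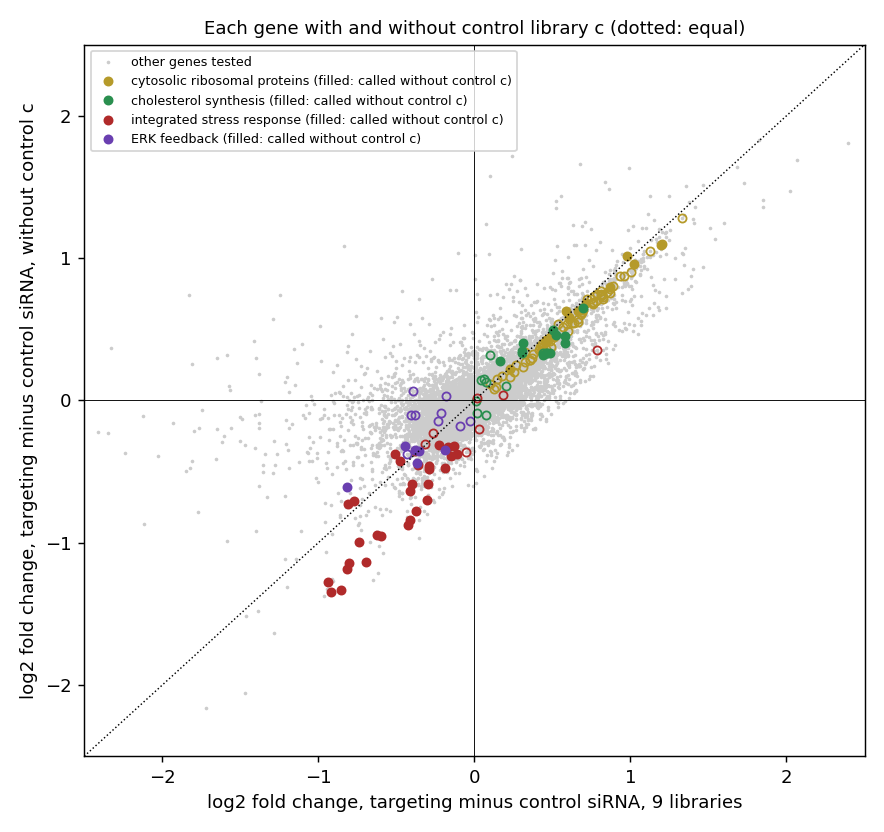
Fitted log2 fold change of each tested gene, targeting minus control siRNA, with all 9 libraries (x axis) and without control library c (y axis), for 4 gene lists against all genes in grey. Filled points were called without control c. Most integrated stress response genes lie below the dotted line of equal values on the lower side (list median -0.37 with 9 libraries and -0.48 without control c), while ribosomal protein genes follow that line (0.61 and 0.55). STC2, GDF15 and ATF3 are among the stress response genes above it.

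The targeted mRNAs did not separate the sides. UXS1 (chromosome 2, 106093303 to 106194339, minus strand, GRCh38) was at 144, 151 and 180 CPM in controls a, b and c, at 145, 138 and 141 CPM with UXS1 siRNA and at 140.5, 156 and 147 CPM with MRPL42 siRNA. The libraries given UXS1 siRNA lay close to controls a and b and overlapped the libraries given the other siRNA. The pooled log2 difference was -0.13 ± 0.07 (SE, edgeR adjusted p = 0.273) with all controls and -0.04 ± 0.06 (adjusted p = 0.754) without control c. MRPL42 (chromosome 12, 93467488 to 93516213, plus strand) was at 100, 118 and 147 CPM in the controls, 131, 115 and 126 CPM with UXS1 siRNA and 104, 93.0 and 81.8 CPM with MRPL42 siRNA. Here MRPL42 siRNA b and c were below all controls and MRPL42 siRNA a was above control a. The exact two-sided permutation p over libraries was 0.119 for UXS1 and 0.393 for MRPL42 with 9 libraries (smallest possible 0.0119), and 0.643 and 0.929 without control c (smallest possible 0.0357). This pooled side includes the libraries given the other gene's siRNA, so it cannot show what each siRNA did to its own target. Under its own siRNA MRPL42 differed by -0.39 with 9 libraries (edgeR unadjusted p = 0.0208, adjusted p = 0.185). Without control c MRPL42 differed by -0.23 (0.0539 and 0.263). UXS1 under its own siRNA differed by -0.17 (0.0866 and 0.348) and -0.08 (0.219 and 0.519). MRPL42 was lower in each library given MRPL42 siRNA than in each given UXS1 siRNA. Since the members carry the label of their siRNA only, they are called libraries given a targeting siRNA and not knockdowns.

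A direct test of UXS1 siRNA against MRPL42 siRNA called 0 of 12657 genes in edgeR, with 218 at an unadjusted p under 0.05 in the 9-library fit and 692 in the fit without control c. With 3 libraries per siRNA, a lack of calls does not show that the siRNAs acted alike. Both siRNAs are described together because the comparison pools them, and not because of this test. Each siRNA's own difference from the shared controls is given side by side for some genes. For asparagine synthetase, ASNS, the difference without control c was -1.19 (log2) for UXS1 siRNA and -1.17 for MRPL42 siRNA. For IGFBP1 it was -0.91 and -0.93, for FDFT1 0.46 and 0.44, and for ID1 0.59 and 0.69. These pairs use the same control libraries, so their likeness is not independent evidence of a shared response.

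**Figure D2:**
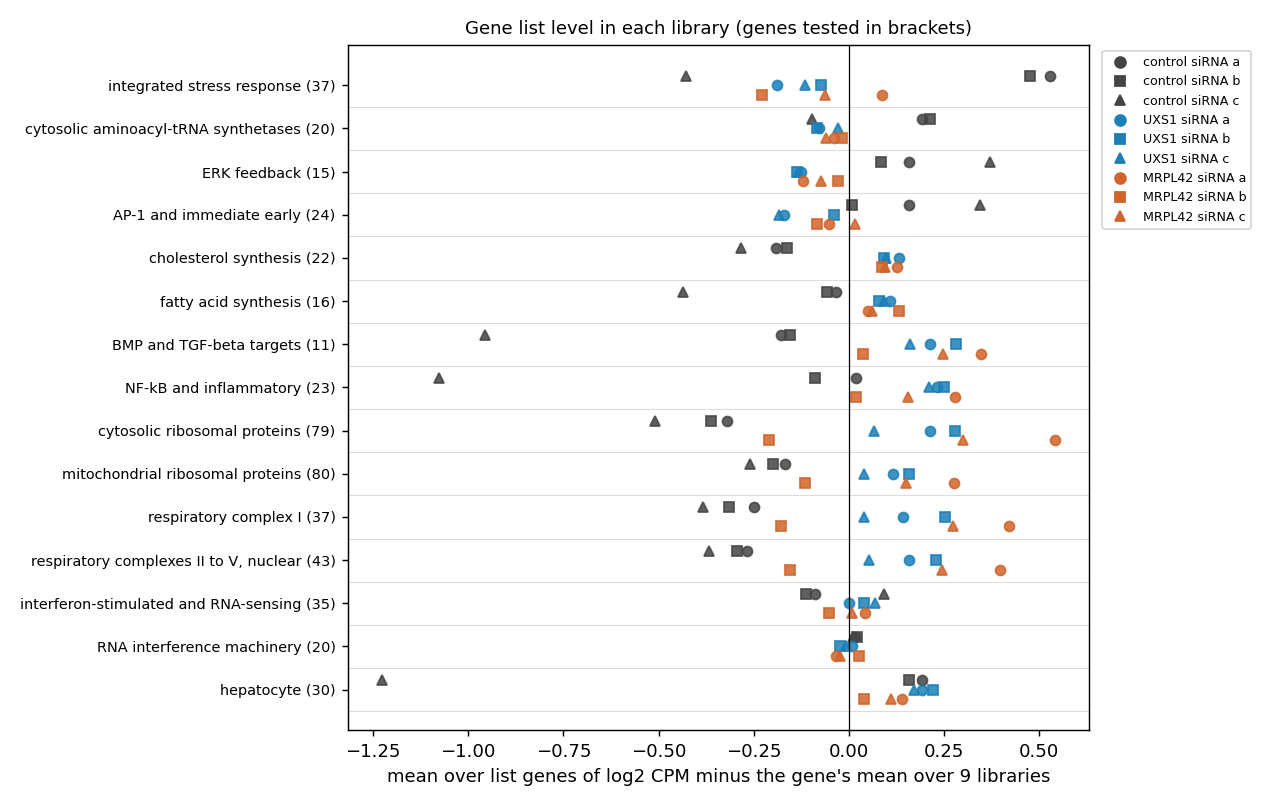
Mean level of 15 gene lists in each of the 9 libraries, as log2 CPM minus each gene's mean over all libraries, with the number of tested genes in brackets. For cholesterol synthesis the 6 targeting libraries lie between 0.09 and 0.13 and the controls between -0.28 and -0.16. For the integrated stress response controls a and b are at 0.53 and 0.48 and control c at -0.43, on the other side of all 6 targeting libraries.

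Genes of the integrated stress response were, in most cases, lower than in controls a and b. Of 41 listed genes 37 were tested, and without control c 30 of them fell and 0 rose, with a list median of -0.48 (log2) against -0.01 over all genes. In the 9-library fit 7 fell and 0 rose, with a median of -0.37. All 6 targeting libraries were below both controls a and b for 33 of the 37 genes. Over all 12657 tested genes, 2805 had all 6 targeting libraries above or below both controls a and b, and the directions were not counted apart. All 6 targeting libraries were below all 3 controls for 8 of the 37, where 5.44% of all tested genes were. For 23 of the 37 genes control c was lower than every other library, and for 7 it was higher than every other. The last 2 counts were not made over all genes. Control c was often at an end in other lists too, so these counts are not particular to this list. It was lowest for 33 of 43 DNA replication genes (highest for 2). It was highest for 19 of 24 immediate early genes (lowest for 2). All 30 had a negative difference in both fits. When control a was left out beside control c, 12 genes of the list were called, all lower, and when control b was left out, 14. With 1 targeting library left out of the fit without control c the number was 22 to 32, and from 9 libraries it was 1 to 7.

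ASNS, which makes asparagine from aspartate, is the standard ATF4 target. It was at 243 and 261 CPM in controls a and b, at 85.3 in control c, at 107, 107 and 119 with UXS1 siRNA and at 130.5, 100.4 and 105 with MRPL42 siRNA. All 6 targeting libraries lay below controls a and b and above control c. The log2 difference was -1.18 ± 0.08 (SE) without control c (edgeR adjusted p = 0.000158) and -0.82 ± 0.26 with it (adjusted p = 0.0936). PSAT1, a serine synthesis enzyme, had the same layout, with 317, 329 and 134 CPM in the controls and 156, 167, 175, 194, 155 and 164 with the targeting siRNAs. Its difference was -0.94 ± 0.08 without control c (adjusted p = 0.000158) and -0.62 ± 0.22 with it (adjusted p = 0.114).

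Many of the larger falls without control c were in the same group. ADM2, a secreted peptide of the adrenomedullin family, fell by 1.35 on the log2 scale from 32.8 and 25.6 CPM to between 8.86 and 14.1. NIBAN1 fell by 1.33 from 10.8 and 10.9 CPM to between 3.61 and 4.73, and control c was at 1.75. The glycine transporter gene SLC6A9 fell by 1.27, from 16.7 and 16.4 CPM to between 6.01 and 8.03. ALDH1L2, a mitochondrial folate enzyme, fell by 1.14, from 21.4 and 23.2 CPM to between 9.05 and 11.9. CHAC1, which degrades glutathione, fell by 1.14, with 15 and 15.6 CPM in controls a and b and 4.79 to 11.1 with the targeting siRNAs. CTH and CBS, the enzymes that turn homocysteine into cysteine, fell by 0.95 and 0.88, and PHGDH, the entry enzyme of serine synthesis, fell by 0.84. SESN2, a leucine sensor that restrains mTORC1, fell by 0.99 and SLC7A1, a carrier of cationic amino acids, by 0.64. For all 10 genes named in this paragraph the 9-library difference was negative but missed the threshold, with adjusted p from 0.0573 (SESN2) to 0.488 (CBS).

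The regulators themselves were named for their role. ATF4 mRNA was at 332 and 331 CPM in controls a and b, 183 in control c and 224 to 296 with the targeting siRNAs, a difference of -0.39 without control c (adjusted p = 0.037) and -0.15 with it (adjusted p = 0.588). DDIT3, which encodes CHOP, was at 80.7, 78.8 and 58.3 CPM in the controls and 69.9 to 97.2 with the targeting siRNAs. Its groups overlapped, and neither difference passed the test (0.18 with 9 libraries, adjusted p = 0.359, and 0.04 without control c, adjusted p = 0.858). After the trend of log2 CPM with transcript length was removed from each library, DDIT3 differed by -0.17 (adjusted p = 0.24) and, without control c, fell by 0.27 (adjusted p = 0.0208), so its direction and its call depended on that step. TRIB3, an inhibitor in the same loop, fell by 0.47 without control c (adjusted p = 0.0244) and differed by -0.19 with it (adjusted p = 0.582). ATF3 was the regulator with the same layout in all 3 controls, at 30.6, 27.6 and 30.7 CPM against 20.9 to 24.2 CPM. ATF3 fell by 0.38 with 9 libraries (adjusted p = 0.0374) and by 0.36 without control c (adjusted p = 0.027).

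Cytosolic aminoacyl-tRNA synthetases, which charge tRNAs and many of which are ATF4 targets, fell without control c in 12 of 20 genes and rose in 0, with a list median of -0.33. In the 9-library fit 3 fell, with a median of -0.21. GARS1, the glycine enzyme, was at 450.2, 450.5 and 318 CPM in the controls and at 272, 272, 299.7, 315, 296 and 291 with the targeting siRNAs. All 6 were below all 3 controls, and the difference was -0.48 with 9 libraries (adjusted p = 0.0444) and -0.64 without control c (adjusted p = 0.00031). After removal of the length trend 0 were called with 9 libraries (GARS1 adjusted p = 0.0579) and 12 without control c. MARS1 fell by 0.59, EPRS1 by 0.55 and TARS1 by 0.54 without control c. XPOT, the exporter of tRNAs from the nucleus, fell by 0.59. Leaving out control a or control b as well left 6 of the 20 synthetases called in either case.

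Promoter letters are given for this group as a description only. Promoters were taken from RefSeq (GRCh38.p14, 250 bases before and 50 after the annotated start, 300 in all), and 10217 tested genes had one. The letters searched for were TGATGNAA, the composite element of ATF4 with C/EBP, on both strands. They were present in 3.67% of all 27305 promoters and in 1.71% of the promoters of tested genes. Among genes called lower without control c, 21 of 200 promoters (10.5%) held them, and among genes called higher, 2 of 184 (1.09%). The integrated stress response list held them in 5 of 32 promoters (15.6%) and the tRNA synthetases in 6 of 16 (37.5%). A match of letters is not a measured binding site, and both lists were drawn up from genes known to respond to stress, so their shares are no independent evidence. The stretches below show the match in capitals, written 5′ to 3′ on the gene's strand, with up to 40 bases on each side and no base past the annotated start. They come from chr7:97872429-97872516 (ASNS, minus strand), chr15:40953222-40953309 (CHAC1, plus strand), chr16:70289646-70289733 (AARS1, minus strand) and chr9:92293698-92293750 (IARS1, minus strand).
ASNS: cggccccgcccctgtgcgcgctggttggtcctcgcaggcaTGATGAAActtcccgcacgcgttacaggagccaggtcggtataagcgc
CHAC1: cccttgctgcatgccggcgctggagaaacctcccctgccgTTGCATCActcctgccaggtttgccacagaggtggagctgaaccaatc
AARS1: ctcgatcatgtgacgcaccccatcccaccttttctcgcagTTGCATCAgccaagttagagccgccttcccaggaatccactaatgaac
IARS1: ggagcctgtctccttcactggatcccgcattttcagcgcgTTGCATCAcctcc
The matches begin at -68, -209, -187 and -13 from the annotated start, which is counted as 1 with no 0. ASNS holds the letters in the forward direction, TGATGAAA, and the other three hold the reverse complement, TTGCATCA. Of these genes, ASNS fell by 1.18 and CHAC1 by 1.14, and the synthetase genes AARS1 and IARS1 fell by 0.35 and 0.46 without control c.

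Another set of falls was present against all 3 controls. IGFBP1, a secreted carrier of insulin-like growth factors made by liver, was at 90.3, 85.3 and 127 CPM in the controls, at 46.6, 48.9 and 46.1 with UXS1 siRNA and at 51.9, 40.5 and 46.4 with MRPL42 siRNA. The highest targeting library lay well under the lowest control. IGFBP1 fell by 1.11 ± 0.12 (SE, adjusted p = 0.0077) with 9 libraries and by 0.92 ± 0.08 (adjusted p = 0.000158) without control c. STC2, a secreted glycoprotein that also belongs to the stress response list, was at 102, 93.7 and 113 CPM in the controls and 53.6 to 66.5 CPM with the targeting siRNAs, and fell by 0.77 ± 0.08 (adjusted p = 0.00571) and by 0.70 without control c (adjusted p = 0.000521). CPLX2, a regulator of vesicle fusion, was at 13.8, 12.9 and 14.6 CPM against 7.22 to 8.02 CPM and fell by 0.86 ± 0.08 (adjusted p = 0.00496) and by 0.82 without control c (adjusted p = 0.000351). These 3 genes were the ones called in the 9-library fit and again after leaving out each of the 9 libraries in turn. CDKN2B, an inhibitor of the cell cycle kinases CDK4 and CDK6, fell by 0.82 from 16.5, 17.9 and 20.1 CPM to between 8.94 and 11.4 and was called in 8 of the 9 omissions; without control c it fell by 0.75 (adjusted p = 0.00174). GDF15, a stress-induced cytokine, fell by 0.81 (adjusted p = 0.0192) and by 0.73 without control c (adjusted p = 0.00405), from 111, 96.8 and 122 CPM to between 53.8 and 73.5.

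**Figure D3:**
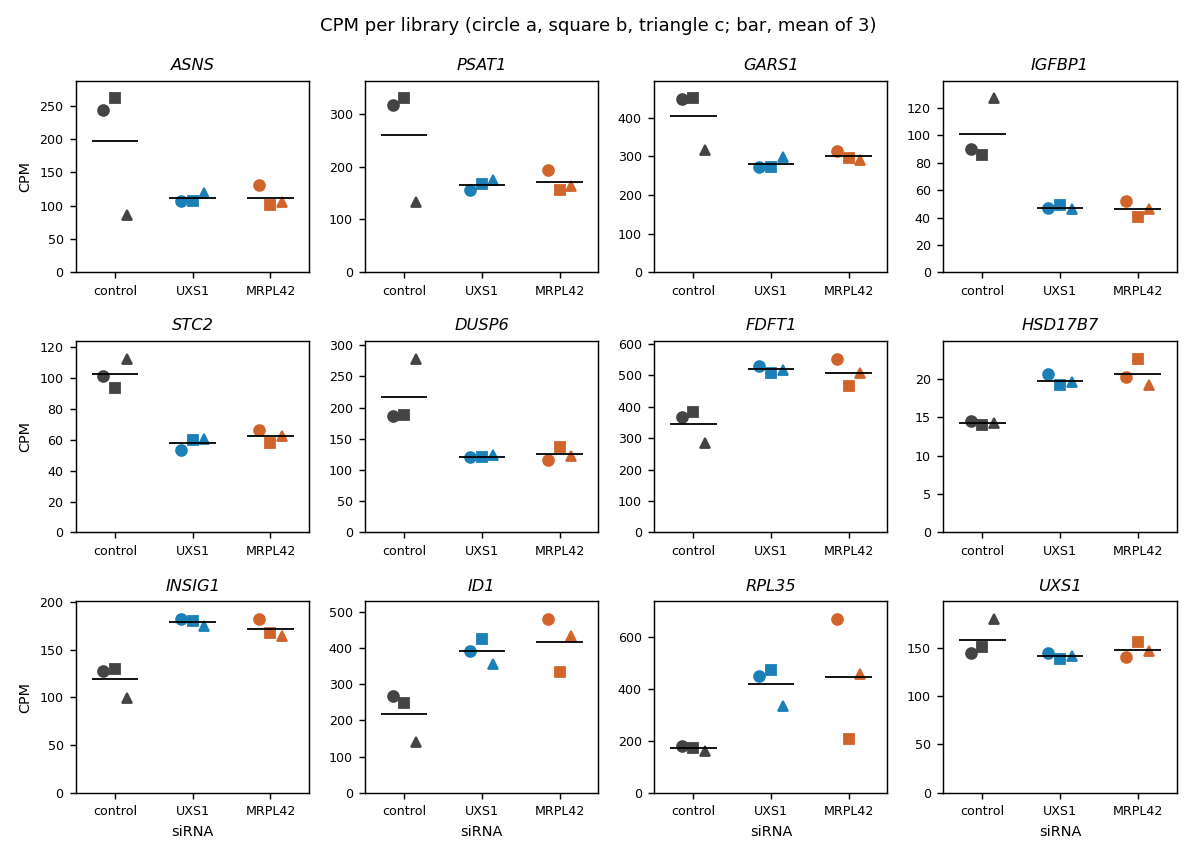
CPM of 12 genes in every library, by siRNA, with the mean of each 3 libraries as a bar; all y axes start at 0. IGFBP1, STC2 and DUSP6 are lower in all 6 targeting libraries than in all 3 controls, ASNS and PSAT1 only than controls a and b, and FDFT1, HSD17B7 and INSIG1 are higher than in all 3 controls. UXS1 itself overlaps between the sides.

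Genes that the ERK cascade induces were among the falls against all 3 controls. In the ERK feedback list 6 of 15 genes fell and 0 rose in each fit, with medians of -0.36 and -0.18, and all 15 differences were below 0 with 9 libraries. DUSP6, the phosphatase that inactivates ERK in the cytoplasm, was at 187, 188 and 278 CPM in the controls and at 120.3, 120.4, 124, 116, 137 and 122 CPM with the targeting siRNAs. It fell by 0.82 ± 0.12 (adjusted p = 0.0232) with 9 libraries and by 0.61 ± 0.06 (adjusted p = 0.000307) without control c. ETV5, an ETS factor under ERK control, was at 85.5, 83.8 and 72.5 CPM against 60.6 to 65.2 CPM and fell by 0.36 with 9 libraries (adjusted p = 0.0303) and by 0.44 without control c (adjusted p = 0.000821). DUSP5, the nuclear ERK phosphatase, fell by 0.36 in the 9-library fit and by 0.35 without control c. ETV4 fell by 0.35 without control c (adjusted p = 0.0372), while its 9-library difference of -0.19 missed the threshold (adjusted p = 0.317).

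In the list of AP-1 and immediate early genes 6 of 24 fell and 0 rose in each fit, with medians of -0.31 and -0.15. EGR1 was at 20.7, 17.7 and 26.7 CPM in the controls and 10.8 to 14.2 CPM with the targeting siRNAs, and fell by 0.72 (adjusted p = 0.0367) with 9 libraries and by 0.55 (adjusted p = 0.0171) without control c. FOS was at 9.54, 9.94 and 8.64 CPM against 5.63 to 7.44 CPM and fell by 0.53 and 0.58 in the respective fits. KLF4, a zinc finger factor, fell by 0.56 and 0.37, and CCN2, a matricellular protein induced by YAP and TGF-beta, by 0.45 and 0.39. For each of these genes all 6 targeting libraries lay below all 3 controls. From 9 libraries with 1 targeting library left out, 0 to 6 genes of either list were called. When 1 targeting library was left out of the fit without control c, 3 to 6 of the immediate early genes and 4 to 7 of the ERK feedback genes were called. Leaving out control a or control b left 0 of the immediate early genes and 2 of the ERK feedback genes. Once the length trend was removed, 4 immediate early and 4 ERK feedback genes were called lower with 9 libraries, and 7 and 6 without control c. KLF4 then lost its 9-library call (adjusted p = 0.0574).

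Of 22 cholesterol synthesis genes 11 rose with 9 libraries and 0 fell, all 22 differences were above 0, and the median was 0.31. Without control c 13 rose and 0 fell, with a median of 0.33. All 6 targeting libraries were above all 3 controls for 13 of the 22 genes, where 8.11% of all tested genes were. FDFT1, squalene synthase, was at 366, 383 and 283 CPM in the controls and at 531, 509, 518, 553, 465 and 508 CPM with the targeting siRNAs. FDFT1 rose by 0.58 ± 0.09 (adjusted p = 0.0284) with 9 libraries and by 0.45 ± 0.06 (adjusted p = 0.00395) without control c. EBP, a sterol isomerase, was at 150, 150 and 136 CPM against 194 to 293 CPM and rose by 0.70 and 0.65. HSD17B7, which acts on both sterols and estrogens, was at 14.6, 14 and 14.3 CPM against 19.1 to 22.6 CPM and rose by 0.50 and 0.49. MVD, which makes isopentenyl diphosphate, rose by 0.52 and 0.46. DHCR7, the last enzyme of the pathway, rose by 0.46 and 0.34, and HMGCS1, the enzyme that makes HMG-CoA, by 0.30 and 0.35. With the length trend removed, 6 of the 22 were called higher with 9 libraries and 13 without control c. HSD17B7 lost both calls, with differences of 0.28 (adjusted p = 0.181) and 0.31 (adjusted p = 0.149).

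Of 17 tested genes for sterol sensing, uptake and efflux 3 rose in each fit and 0 fell. INSIG1, the anchor protein that is itself a target of SREBP, was at 127, 129.9 and 99.6 CPM in the controls and 164 to 182 CPM with the targeting siRNAs. INSIG1 rose by 0.56 ± 0.08 (adjusted p = 0.0268) and by 0.44 ± 0.06 (adjusted p = 0.00192) without control c. NPC2, a lysosomal carrier of cholesterol, rose by 0.43 and 0.44, but after removal of the length trend it differed by 0.14 (adjusted p = 0.232) and 0.19 (adjusted p = 0.0924). With that step 1 gene of the list was called higher with 9 libraries and 2 without control c. In fatty acid synthesis 3 of 16 genes rose in each fit and 0 fell, and 1 and 6 were called higher after removal of the trend. ACSS2, which makes acetyl-CoA from acetate, was at 58.9, 58.5 and 48.3 CPM against 73.7 to 80.6 CPM and rose by 0.49 and 0.40. The letters TCACNCCAC of an SREBP element were in 0 of 17 cholesterol synthesis promoters and in 1.15% of all promoters, which says only that these exact letters are not in those windows. Cholesterol synthesis calls did not outlast the omission of control a or control b together with control c, which leaves 1 control. In the fit without control c, 9 to 14 of the 22 were called when 1 targeting library was left out. From 9 libraries, 0 to 11 were called with 1 targeting library left out.

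Transcript length moved with the sides. The slope of log2 CPM (relative to each gene's mean) on doublings of transcript length was 0.05, 0.07 and 0.13 in the controls, -0.03, -0.07 and -0.01 with UXS1 siRNA, and -0.10, 0.04 and -0.08 with MRPL42 siRNA. Short transcripts were thus relatively scarcer in all 3 controls and in MRPL42 siRNA b than in the other 5 libraries. Of 733 tested genes with transcripts under 1000 bases, 23.1% rose and 0.136% fell with 9 libraries, and 12.1% rose and 0.546% fell without control c. Of 4193 genes of 4000 bases and over, 0.334% rose and 1.57% fell with 9 libraries. The median length was 991 bases for genes called higher with 9 libraries, 4067 for genes called lower and 2993 for all tested genes. Whether RNA quality or size selection differed between the libraries was not tested.

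**Figure D4:**
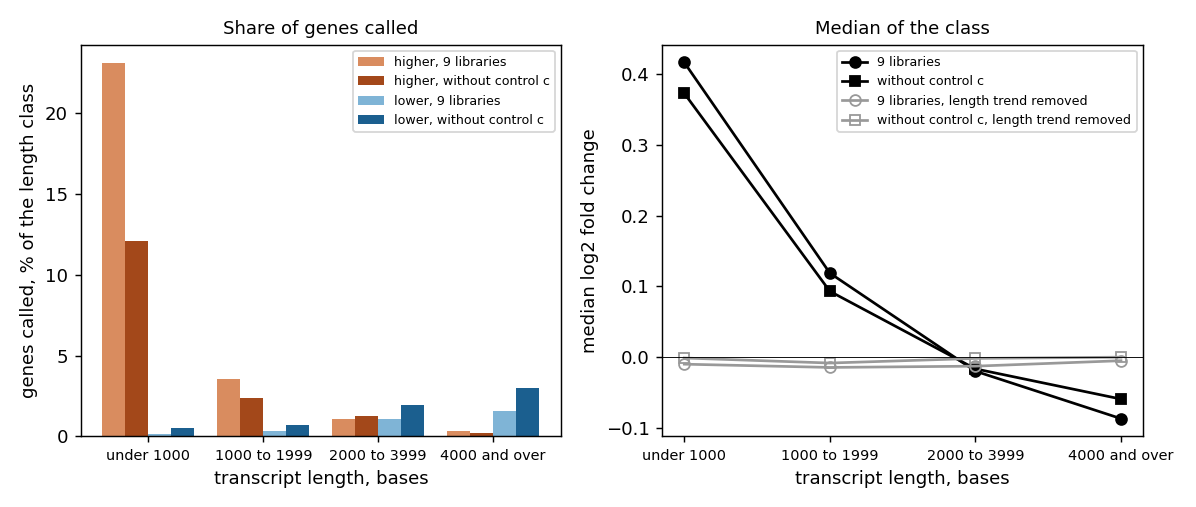
Share of genes called in 4 classes of transcript length (left, bars from 0) and median log2 fold change of each class (right), with and without control library c. The median of transcripts under 1000 bases is 0.42 with 9 libraries and 0.37 without control c, and after the length trend of each library is removed it is -0.01 and 0.00.

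Many of the largest rises were in short transcripts. MTLN, which encodes a small peptide of the mitochondrial inner membrane, was at 14.2, 11.2 and 11.8 CPM in the controls and at 38.8, 45.8, 28.6, 62.5, 17.6 and 45.2 CPM with the targeting siRNAs. MTLN rose by 1.68 ± 0.34 (adjusted p = 0.0439) and by 1.64 ± 0.38 (adjusted p = 0.0422) without control c. Its annotated transcript is 2051 bases long, and after removal of the trend its differences were 1.63 (adjusted p = 0.0539) and 1.61 (adjusted p = 0.0245). APOC1, an apolipoprotein, was at 8.31, 8.42 and 5.73 CPM against 10.6 to 28.3 CPM and rose by 1.41 and 1.25, and by 0.85 and 0.74 after removal of the trend. PDZK1IP1 rose by 1.85 and 1.36, RPP21, a subunit of ribonuclease P, by 1.25 and 1.20, and SMIM22 by 1.25 and 1.44. Their 9-library calls were lost after removal of the trend, with differences of 1.44 (adjusted p = 0.0909), 0.61 (adjusted p = 0.0602) and 0.64 (adjusted p = 0.113). Without control c RPP21 then rose by 0.62 and SMIM22 by 0.91. In MTLN, APOC1 and RPP21 MRPL42 siRNA b was the lowest and MRPL42 siRNA a the highest of the 6. MIF, a cytokine, rose by 1.40 with 9 libraries (adjusted p = 0.046) and differed by 1.27 without control c (adjusted p = 0.0604). TRAPPC5, NAA38, MZT2B, MICOS13 and NDUFB7 rose with 9 libraries by 1.22 (NDUFB7) to 1.41 (TRAPPC5) and missed the threshold without control c, where TRAPPC5 differed by 1.36 (adjusted p = 0.0594) and NDUFB7 by 1.18 (adjusted p = 0.0517). None of MIF and these 5 kept its 9-library call after removal of the trend (adjusted p from 0.0716 to 0.086), and NDUFB7 was then at 0.57. Without control c CRIP1 rose by 1.49, C19orf33 by 1.31, FGFBP1 by 1.24 and the galectin gene LGALS1 by 1.20, while their 9-library differences missed the threshold (adjusted p from 0.0519 to 0.93). Once the trend was removed, these rises were 1.02, 0.65, 1.1 and 0.63. SPANXD rose by 1.17 and 1.12, and by 0.67 in both fits after removal of the trend. SPANXD has near-identical copies on the X chromosome, so its reads could be split between them.

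All 79 cytosolic ribosomal protein genes had differences above 0 in both fits. With 9 libraries 47 of 79 rose and 0 fell, with a median of 0.61, and without control c 12 rose, with a median of 0.55. RPL35 was at 182, 173 and 162 CPM in the controls and at 451, 472, 333, 672, 208 and 459.7 CPM with the targeting siRNAs. MRPL42 siRNA b, at 208, was close to the controls, and RPL35 rose by 1.33 with 9 libraries (adjusted p = 0.0444) and differed by 1.28 without control c (adjusted p = 0.0532). RPS29 rose by 1.19 and 1.09 and RPS27 by 1.03 and 0.96. RPS26, at 184, 175 and 197 CPM against 265 to 444 CPM, rose by 0.98 (adjusted p = 0.0232) and 1.02 (adjusted p = 0.00527). RPS26 and other ribosomal protein genes have many processed pseudogenes, so how reads were shared among copies is uncertain. The list's median transcript length was 802 bases. After removal of the length trend the median of the ribosomal list was 0.19 with 9 libraries and 0.18 without control c, with 1 and 17 of 79 called higher. RPS27 lost both calls, with differences of 0.21 (adjusted p = 0.11) and 0.20 (adjusted p = 0.113), and RPS29 its 9-library call (0.52, adjusted p = 0.061). RPS26 kept its call after that removal, with a rise of 0.72 in the 9-library fit and 0.81 without control c.

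The nuclear-encoded respiratory chain showed the same layout. In complex I 11 of 37 genes rose with 9 libraries and 3 without control c, with medians of 0.43 and 0.38. In complexes II to V 18 of 43 and 10 of 43 rose, with medians of 0.44 and 0.40, and 0 fell in either list. UQCR11, a small subunit of complex III, was at 48.2, 47.3 and 44.7 CPM in the controls and at 109, 116, 85.4, 154, 58.6 and 114 CPM with the targeting siRNAs. UQCR11 rose by 1.18 and 1.15. NDUFA2 of complex I rose by 1.04 and 0.96 and COX7A2 of complex IV by 0.95 and 0.97. Of the 13 genes encoded in mitochondrial DNA 0 were called by edgeR in either fit (medians -0.03 and 0.07), 1 had an unadjusted p under 0.05 in each, and DESeq2 called 1 with 9 libraries and 0 without control c. Of 80 mitochondrial ribosomal proteins, the family of MRPL42, 16 rose with 9 libraries and 7 without control c, among them MRPL41 by 1.20 and 1.18 and MRPL17 by 0.65 and 0.66. Once the length trend was removed, 0 complex I genes (median 0.13), 3 genes of complexes II to V (median 0.10) and 0 mitochondrial ribosomal genes (median 0.06) were called higher with 9 libraries, and 6, 9 and 8 without control c. UQCR11, NDUFA2, COX7A2, MRPL41 and MRPL17 then missed the threshold with 9 libraries (adjusted p from 0.0578 to 0.0717). Leaving out control a, any UXS1 siRNA library or MRPL42 siRNA c from the 9 left 0 genes called higher in the whole table, so every call in these lists was lost. Without MRPL42 siRNA b, the library nearest to the controls in these lists, 25 complex I genes, 40 mitochondrial ribosomal genes and 74 of the 79 cytosolic ribosomal genes were called higher with the other 8 libraries.

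**Figure D5:**
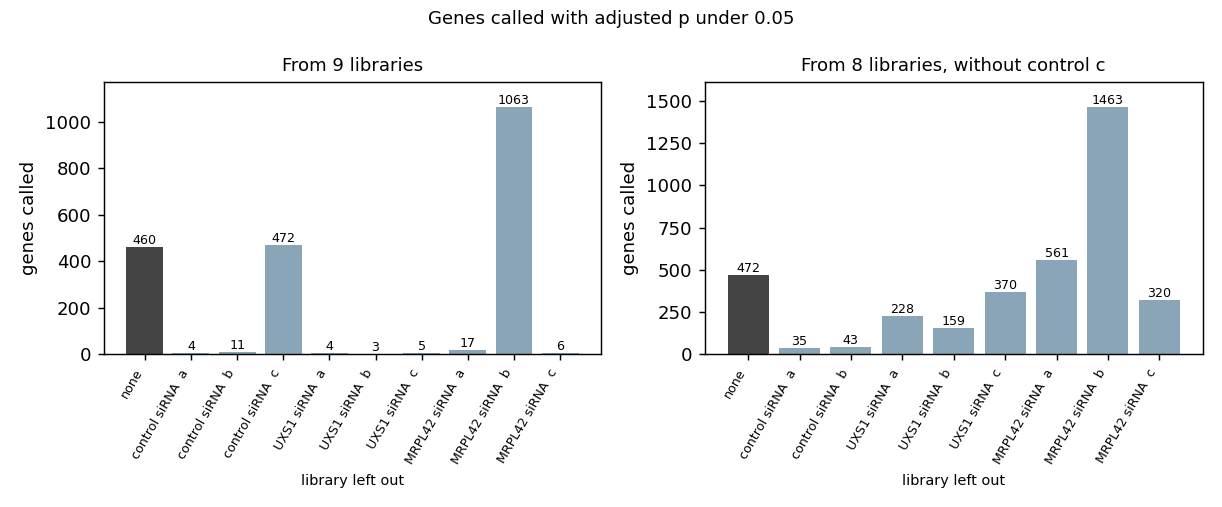
Number of genes called (edgeR, adjusted p under 0.05, bars from 0) when each library in turn is left out, starting from 9 libraries (left) and from 8 without control c (right). From 9 libraries the count goes from 3 without UXS1 siRNA b to 1063 without MRPL42 siRNA b; from 8 it goes from 35 without control a to 1463 without MRPL42 siRNA b.

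The counts depended on single libraries. From 9 libraries, leaving out control a gave 4 genes, control b 11, UXS1 siRNA a 4, b 3 and c 5, and MRPL42 siRNA a 17, b 1063 and c 6. Without control c, leaving out control a as well gave 35 genes and control b 43, UXS1 siRNA a 228 and b 159, and MRPL42 siRNA b 1463. When only 1 control was left, that lone library was assumed to vary like the others. In the fit without control c, 28 genes were called in all 8 further omissions, and all 28 were lower. They included 11 integrated stress response genes and 6 tRNA synthetases. The others were IGFBP1, CPLX2, DUSP6, ETV5, TXNIP, BMP6, ERRFI1, GPT2, ITIH2, MOCOS and SNTB1. TXNIP, which restrains glucose uptake, was at 22.2, 25.2 and 18.1 CPM in the controls and 12 to 14 CPM with the targeting siRNAs. ERRFI1, a feedback inhibitor of the EGF receptor, was at 522, 542 and 376 CPM in the controls and 367 to 389.7 CPM with the targeting siRNAs, so control c lay among the targeting libraries. BMP6 was at 90.4 and 83.0 CPM in controls a and b and 59.7 to 63.6 CPM with the targeting siRNAs, with control c at 26.8. ITIH2, a plasma protein made by hepatocytes, was at 199 and 203 CPM against 139.7 to 151.5 CPM, with control c at 27.5. After removal of the length trend, 347 of the 472 genes called without control c stayed called (150 higher and 197 lower), and 72 of the 460 called with 9 libraries did (38 higher and 34 lower). The stress response list then had 5 of 37 genes lower with 9 libraries and 33 without control c.

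Of 11 tested target genes of BMP and TGF-beta signalling 4 rose with 9 libraries and 5 without control c, and 0 fell. ID1, an inhibitor of helix-loop-helix factors, was at 268, 249 and 141 CPM in the controls and at 393, 425, 357, 482, 334 and 435 CPM with the targeting siRNAs. ID1 rose by 0.88 (adjusted p = 0.0444) and by 0.64 (adjusted p = 0.0188) without control c. ID2 was at 21.9, 21.4 and 24.2 CPM against 26.6 to 31.6 CPM and rose by 0.43 and 0.48. ID3 rose by 0.93 without control c, from 138 and 124 CPM to between 195 and 304, and with control c, at 22.4, its difference of 1.40 missed the threshold (adjusted p = 0.0833). HAMP, the iron hormone hepcidin, was near the detection limit at 0.671, 1.47 and 0.212 CPM in the controls and 1.49 to 3.44 CPM with the targeting siRNAs. It rose by 1.85 (adjusted p = 0.0483) and 1.41 (adjusted p = 0.0472). With the length trend removed, 0 of the 11 were called with 9 libraries and 5 without control c. ID1 then differed by 0.58 (adjusted p = 0.0761) with 9 libraries and rose by 0.37 without control c, ID2 differed by 0.25 (adjusted p = 0.0962) and rose by 0.35, and HAMP lost both calls (adjusted p = 0.112 and 0.0947). The ligand gene BMP6, whose values are given above, fell by 0.51 without control c (adjusted p = 0.000481), and its 9-library difference of -0.12 missed the threshold (adjusted p = 0.807).

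Among inflammatory genes 3 of 23 rose with 9 libraries and 4 without control c, and 0 fell. NFKBIZ, a nuclear partner of NF-kB, was at 38.0, 36.8 and 29.8 CPM in the controls and 42.1 to 49.3 CPM with the targeting siRNAs and rose by 0.41 and 0.30. NFKBIA, the inhibitor that NF-kB induces, rose by 0.27 without control c (adjusted p = 0.0425), and its 9-library difference of 0.53 missed the threshold (adjusted p = 0.0972). Once the trend was removed, 0 of the 23 were called with 9 libraries and 3 without control c, and NFKBIA was not among them (adjusted p = 0.119). SAA1, an acute phase protein, had 0 counts in control c and 0.671 and 0.598 CPM in controls a and b, against 0.97 to 3.04 CPM. Of 35 interferon-stimulated and RNA-sensing genes 0 were called by edgeR in either fit, with medians of 0.11 and 0.06. At an unadjusted p under 0.05 there were 10 with 9 libraries and 7 without control c, and DESeq2 called 3 higher and 1 lower, and 1 higher, respectively. ISG15 was at 21.7, 17.6 and 31.2 CPM in the controls and 23.1 to 58.6 CPM with the targeting siRNAs, and its groups overlapped (adjusted p = 0.117 and 0.0594). Of 20 genes of the RNA interference machinery edgeR called 0, with medians of -0.04 and -0.07, 3 and 6 genes at an unadjusted p under 0.05, and 1 lower and 0 called by DESeq2. TNRC6A, a scaffold of the silencing complex, differed by -0.22 (adjusted p = 0.0674) and by -0.19 without control c (adjusted p = 0.099). AGO2, the slicer, differed by -0.15 (adjusted p = 0.118) and -0.14 (adjusted p = 0.166).

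Other lists gave few calls, where 3.63% of all tested genes were called with 9 libraries and 3.73% without control c. A single call in a list is near that share and is no result about the list. In the unfolded protein response of the endoplasmic reticulum 2 of 26 genes rose in each fit. They were SDF2L1, at 28.2, 25.8 and 22.4 CPM against 34.4 to 48.0 CPM (rises of 0.69 and 0.60), and MANF, at 57.5, 58.6 and 45.2 CPM against 70.9 to 88.4 CPM (0.53 and 0.42). After removal of the length trend SDF2L1 differed by 0.31 and 0.27 (adjusted p = 0.0762 and 0.0833) and MANF by 0.29 and 0.22 (adjusted p = 0.0966 and 0.12), so 0 genes of this list were then called higher in either fit. ERN1, the stress sensor IRE1, fell by 0.42 without control c (adjusted p = 0.0146) and differed by -0.24 with it (adjusted p = 0.249). HSPA5, the main chaperone there, was named for its role and differed by 0.24 (adjusted p = 0.144) and by 0.14 without control c (adjusted p = 0.348). Of 16 mitochondrial stress genes HSPE1 rose by 0.42 in both fits, the chaperone gene HSPA9 fell by 0.24 and 0.29, and the protease gene LONP1 fell by 0.26 without control c. After removal of the length trend HSPE1, with a short transcript, differed by 0.08 (adjusted p = 0.487) and 0.14 (adjusted p = 0.282), HSPA9 kept its call without control c only, and LONP1 lost its call (adjusted p = 0.0508). Of 31 hypoxia and glycolysis genes 1 rose and 3 fell with 9 libraries, and 2 rose and 3 fell without control c. VEGFA of that list fell by 0.45 and 0.51, from 57.4, 52.6 and 48.3 CPM to between 36.7 and 41.9. GFPT1, which opens the hexosamine pathway, fell by 0.37 and 0.39 and was the single gene that edgeR called of 19 for UDP-sugars and the glycosaminoglycan linker, the pathway of UXS1. DESeq2 called 2 higher and 1 lower in that list with 9 libraries and 1 higher and 1 lower without control c. Of 32 lysosome and autophagy genes 2 rose and 1 fell with 9 libraries, and 3 rose and 2 fell without control c. ULK1, which starts autophagy, fell by 0.43 and 0.45 (adjusted p = 0.0909 with 9 libraries after removal of the trend). TNFRSF10B, a death receptor that p53 induces, fell by 0.33 and 0.32. Of 25 p53 targets 1 fell with 9 libraries and 2 without control c, and 0 rose. Metallothioneins fell without control c in 2 of 6 genes, MT1X by 2.16 from 2.42 and 1.85 CPM to between 0.259 and 0.711, and MT2A by 1.03 from 15.1 and 12.9 CPM to between 5.5 and 8.55. Control c was low for both, at 0.477 and 3.66 CPM. SPC24, a kinetochore protein, rose by 0.56 and 0.48 and was the single gene that edgeR called of 41 for mitosis, where DESeq2 called 5 higher and 1 lower with 9 libraries and 1 higher without control c.

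Lists tied to the targets and to the cell type gave few calls. Of 28 genes that build and sulfate heparan and chondroitin chains, downstream of UXS1, edgeR called 0 in either fit, with medians of -0.15 and 0.00. At an unadjusted p under 0.05 there were 7 and 5, and DESeq2 called 3 lower with 9 libraries and 0 without control c. Of 30 hepatocyte genes 0 were called with 9 libraries, with 8 at an unadjusted p under 0.05, while DESeq2 called 1 higher and 1 lower. Without control c CEBPA, a hepatocyte transcription factor, rose by 0.37, and ITIH2 and the coagulation factor gene F5 fell by 0.48 and 0.27. Of 11 intestinal and biliary genes 0 were called with 9 libraries, with 6 at an unadjusted p under 0.05, while DESeq2 called 3 higher and 1 lower. Without control c 3 rose, KRT7 by 0.61, LGALS4 by 0.53 and KRT19 by 0.38. Among 22 small spliceosome proteins 8 rose with 9 libraries and 3 without control c, namely LSM3 by 0.84, SNRPG by 0.73 and SF3B5 by 0.61. With the length trend removed, 1 of the 22 was called in each fit, LSM3, and leaving out 1 library gave 0 to 13 and 0 to 11. LSM3 was at 27.6, 27.3 and 28.2 CPM in the controls and 37 to 58.7 CPM with the targeting siRNAs. Its annotated transcript is 3815 bases long, so the length correction treated it as a long transcript. As in MTLN, APOC1 and RPP21, MRPL42 siRNA b was the lowest and MRPL42 siRNA a the highest of the 6.

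In some of the largest 9-library falls control c was the highest library, and the fall was smaller without it. TNS4, an adhesion adaptor, was at 20.2 and 19.4 CPM in controls a and b, 102 in control c and 8.61 to 14.1 with the targeting siRNAs. TNS4 fell by 2.12 with 9 libraries (adjusted p = 0.0444) and by 0.87 without control c (adjusted p = 0.0143). CAPN8, PRDM1, HMCN1 and CEMIP were also highest in control c, with falls of 1.77, 1.33, 1.40 and 0.91 that became 0.78, 0.68, 0.91 and 0.52. CAMK2B fell by 0.95 and 0.72, NCOA7 by 0.84 and 0.44, and TBC1D19 by 0.88 and 0.47. In each of these 8 genes all 6 targeting libraries were below controls a and b as well, and all 8 were called without control c. HMCN1 and CAMK2B kept their 9-library calls when the length trend was removed, and the other 6 missed the threshold (adjusted p from 0.0574 to 0.0746). VCAN, the proteoglycan versican, was at 106, 117 and 329 CPM in the controls and 80.7 to 99.97 CPM with the targeting siRNAs, and fell by 0.34 without control c (adjusted p = 0.0347), while its 9-library difference of -1.05 missed the threshold (adjusted p = 0.0652).

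Markers of the line were checked as CPM per kilobase of annotated transcript. The keratins KRT8 (2230 to 3440) and KRT18 (911 to 1130) were high in every library. Hepatocyte markers were low, with ALB at 1.59 in control c and 5.29 to 6.35 in the other 8 libraries. FGB was at 0.806 in control c and 15.7 to 20.1 in the others, and the intestinal cadherin CDH17 at 194 in control c and 43.3 to 49.2 in the others. Of 12 fibroblast and stellate markers 4 passed the expression filter, of 10 endothelial markers 3 and of 13 leukocyte markers 2. COL1A1 reached at most 0.0867 CPM per kilobase and COL1A2 0.0196, but LUM was at 276.6 CPM in control c and 35.4 to 44 CPM in the others, and DCN at 25 CPM and 17.7 to 20.5 CPM. CDH5 of endothelium had 0 counts in all libraries, while PECAM1 was at 2.82 per kilobase in control c and 4.47 to 5.65 in the others, and KDR at 0.669 and 4.2 to 6.21, levels like that of ALB. PTPRC of leukocytes reached at most 0.0984 per kilobase, and CD68 was at 129.7 CPM in control c and 71.9 to 108.5 CPM in the others. The part of such cells in the results was not tested. The 30 tested hepatocyte genes averaged -1.23 in control c (log2 CPM relative to the mean of 9 libraries) and 0.04 to 0.22 in the others. In bulk RNA, fewer cells of a type and less RNA per cell cannot be told apart. What made that library differ was not tested.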

How the data were processed

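Each siRNA group has 3 libraries of HCCLM3, and columns were assigned to groups by name; the UXS1 columns exchange 2 letters of the gene's name, and the column letters could not be matched to the repeat numbers of the titles. Tools and build named by the submitters' processing notes are HISAT2, Bowtie2, fastp, edgeR and hg38; the counting program, annotation and strand setting were not stated, so reads of overlapping and antisense genes are uncertain. The authors deposited estimated counts per gene for 20379 genes, not divided by depth or length. They also deposited 9 columns of TPM, which were not used. Library totals were 15265959 to 22400560, and since no molecular identifiers were reported, counting error understates the error of the values.

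Estimated counts were rounded, although the planned test assumed raw counts. With edgeR 4.0.16 in R 4.3.3, genes were filtered (filterByExpr, 12657 kept in both fits), scaled by TMM and fitted with 1 mean for the 6 targeting libraries and 1 for the controls. The quasi-likelihood test was two-sided with Benjamini-Hochberg adjustment over all tested genes, and a gene was called at an adjusted p under 0.05. CPM uses TMM-adjusted totals, and log2 CPM a prior count of 2. Transcript length is the median over principal transcripts in GENCODE 29; for the length correction a lowess trend (span 0.3) was removed per library. The fits were tested on simulated data. Those data had no library set apart from its side and no length trend, so the check cannot speak to either. Every pair of libraries within a siRNA group differed by more than sampling noise (lowest chi-square per gene 3.34), and all libraries were kept as separate. Pairs from different groups were not examined in this way.

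The members and the 39 gene lists were chosen with earlier results of these data known. Genes named are both targets, the 12 largest rises and falls per fit (called, at least 5 CPM, groups not overlapping), up to 4 called members per list, and regulators, which are named for their role; members of the integrated stress response, tRNA synthetase, cholesterol and other lists beyond these, and the genes called in every omission, were chosen after their values were seen. Some genes of the lists are not reported here by name. Alternatives used limma 3.58.1 and DESeq2 1.42.0, other scalings and filters, a replicate block by column letter, and each library left out.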

Additional observations from a re-analysis of the deposited data

Results flagged for a closer look

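Among the 6 targeting libraries, 4 genes of the text had a library set apart from the rest by a gap over Dixon's 95% critical value for 6 values of log2 CPM; chance flags about 1 in 20 such groups, and 131 genes were examined. EGR1 was lowest in UXS1 siRNA c, at 10.81 CPM against 12.89 in the next library. ID2 was lowest in MRPL42 siRNA b, at 26.58 CPM against 30.56, and so was HAMP, at 1.487 CPM against 2.692. TNFRSF10B was lowest in UXS1 siRNA a, at 101.7 CPM against 106.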

How the results depend on the processing

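The 460 genes called with 9 libraries became 22 when each siRNA had its own mean, 1451 with DESeq2, 153 with limma-voom, 2006 with limma-voom and library weights, and 83 after length correction. Leaving out 1 library gave 3 to 1063. The 472 genes called without control c became 1015 with DESeq2 and 1888 with library weights, and leaving out 1 more library gave 35 to 1463. RLE, upper quartile and total-count scaling, no filter and a filter at 5 CPM kept both counts within 1.5 times. The share of calls that were higher was 72% with 9 libraries and 47.7% without control c; the latter was 58.8% with upper quartile scaling and 66% with DESeq2. Same-lettered libraries did not deviate together (r of deviations -0.27 to 0.13), so the letters were not used as pairs; with a replicate block by letter 17 genes were called with 9 libraries and 91 without control c.

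Some small differences changed sign. With 9 libraries these were DDIT3 (-0.17 after length correction), BMP6 (0.062 with limma-voom), FGFBP1 (-0.13 after length correction), KRT19 (-0.035 after length correction), F5 (0.021 with limma-voom, 4e-04 with the replicate block and 0.052 after length correction) and ITIH2 (-0.016 with total-count scaling and -0.39 with library weights). Over single omissions TRIB3 went from -0.47 to 0.015, AARS1 from -0.35 to 0.020, BMP6 from -0.51 to 0.16, FGFBP1 from -0.32 to 1.24, LONP1 from -0.26 to 0.023, F5 from -0.27 to 0.11 and ITIH2 from -0.48 to 0.35. Without control c, MRPL42 was at 0.015 with library weights, 0.016 with the replicate block and 0.052 after length correction, and went from -0.12 to 0.11 over omissions. DDIT3 was at -0.27 after length correction, where it was called (adjusted p = 0.0208), and went from -0.015 to 0.079 over omissions. The causes were not tested. Depth limits genes near 1 CPM such as HAMP and SAA1.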
